A study of Mus musculus with 18 samples.

Results

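Fatty acid oxidation and ketogenesis were described in the livers and tumors of Alb-R26Met mice through 42 genes that were given by symbol. All 42 were among the 28442 genes of the deposited table. The list runs from fatty acid uptake to ketone bodies, but its ketone body part is 1 gene, Bdh1, and other ketone body genes are summarised further on from a separate list. Bulk RNA-seq was done on 6 livers, taken from mice without tumors, and on 12 advanced tumors. All mice were male and had a mixed C57 and 129Sv F1 background. They carried the R26stopMet transgene, a chimeric mouse and human Met at the Rosa26 locus, and Alb-Cre, which switches it on in cells that use the albumin promoter, the hepatocyte lineage. The livers carried the transgene too, so no group without it entered the comparison, and the tumors arose spontaneously. The mice were 52 to 71 weeks old for livers and 49 to 72 weeks old for tumors. Since tumors 11 and 12 shared a mouse, there were 17 mice for 18 samples. Sample names hold a tag, E19 (2 livers, 7 tumors) or E20 (4 livers, 5 tumors), and what these tags stand for is not given in the sources used here.

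Fatty acids enter hepatocytes through carriers, are bound or stored in lipid droplets, and are activated to acyl-CoA before use. Mitochondria take up acyl-CoA through the carnitine shuttle and shorten it in a cycle of dehydrogenation, hydration, second dehydrogenation and thiolysis, while peroxisomes start on the longest chains. Much of the acetyl-CoA made in the liver during fasting becomes ketone bodies, and the nuclear receptor PPAR alpha is the main activator of these genes in hepatocytes.

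The deposited whole numbers were read as rounded TPM, the unit that the study's methods name, in which each gene's share of transcripts is corrected for its length. Each sample was divided by 1 factor to make samples comparable, and these scaled TPM are the levels given here. Deposited totals ran from 835144 to 907513 per sample. Read numbers cannot be recovered from TPM, so the depth is unknown and no counting error can be given, and a listed 0 may be any TPM that was rounded down. The gene Siglece alone held 17.9 to 29.5% of the total in livers, up to 53.4% in 11 tumors and 82.9% in tumor 2. In that tumor 32 of the 42 members were at most 10 as deposited, which makes its scaled values coarse. Hepatocyte markers were high in every sample. The 7 of the 8 listed that the table held summed to 37961 to 50023 scaled TPM in livers and 39120 to 80366 in tumors, with 10 tumors above the highest liver. Of these markers Apoa1 and Ahsg were higher in tumors and the other 5, Alb and Hnf4a among them, did not pass the test. Markers of bile duct cells summed to 9.45 to 19.04 in livers and 58.1 to 920 in tumors, and those of proliferation to 0 to 1.89 and 6.02 to 33.2, with all 12 tumors above every liver for both. Of the bile duct markers Spp1, a secreted protein, rose by 4.45 on the log2 scale and held most of the sum in tumors, Sox9 did not pass the test, and Krt7, Krt19 and Epcam were at most 1.82 in every tumor and were not tested. Macrophage markers summed to 44.1 to 127 in livers and 10.1 to 94.9 in tumors, with 8 tumors below every liver and 2 of the 7 genes lower. Endothelial markers had 2 of 6 genes higher, fibroblast and stellate cell markers 2 of 6 higher and 2 lower, and none of the lymphocyte markers passed the filter on low values. The part of these cells in the members' values was not tested.

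Among the 11708 genes with a scaled TPM of at least 1 in at least 6 samples, which held all 42 members, 9.28% were lower and 9.77% higher in tumors (limma on log2 of scaled TPM + 1, Benjamini-Hochberg adjusted p under 0.05). Of the members, 19 were lower (45.2%) and 4 were higher (9.52%), and 19 did not pass the test. The members' log2 fold changes had a median of -0.68, against -0.06 for all genes tested, and 36 of the 42 were negative. The lower members lay in 9 of the 10 roles. Of the peroxisomal members 5 of 6 fell, together with 3 of 6 thioesterases and 3 of 5 isomerases and reductases. Cd36, Plin2, Acsl5 and Bdh1 rose, and the share of members that rose was close to that of all genes. A fold change on this scale understates the change of genes with low values. In bulk tissue, fewer cells of a type and less RNA per cell cannot be told apart.

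**Figure D1:**
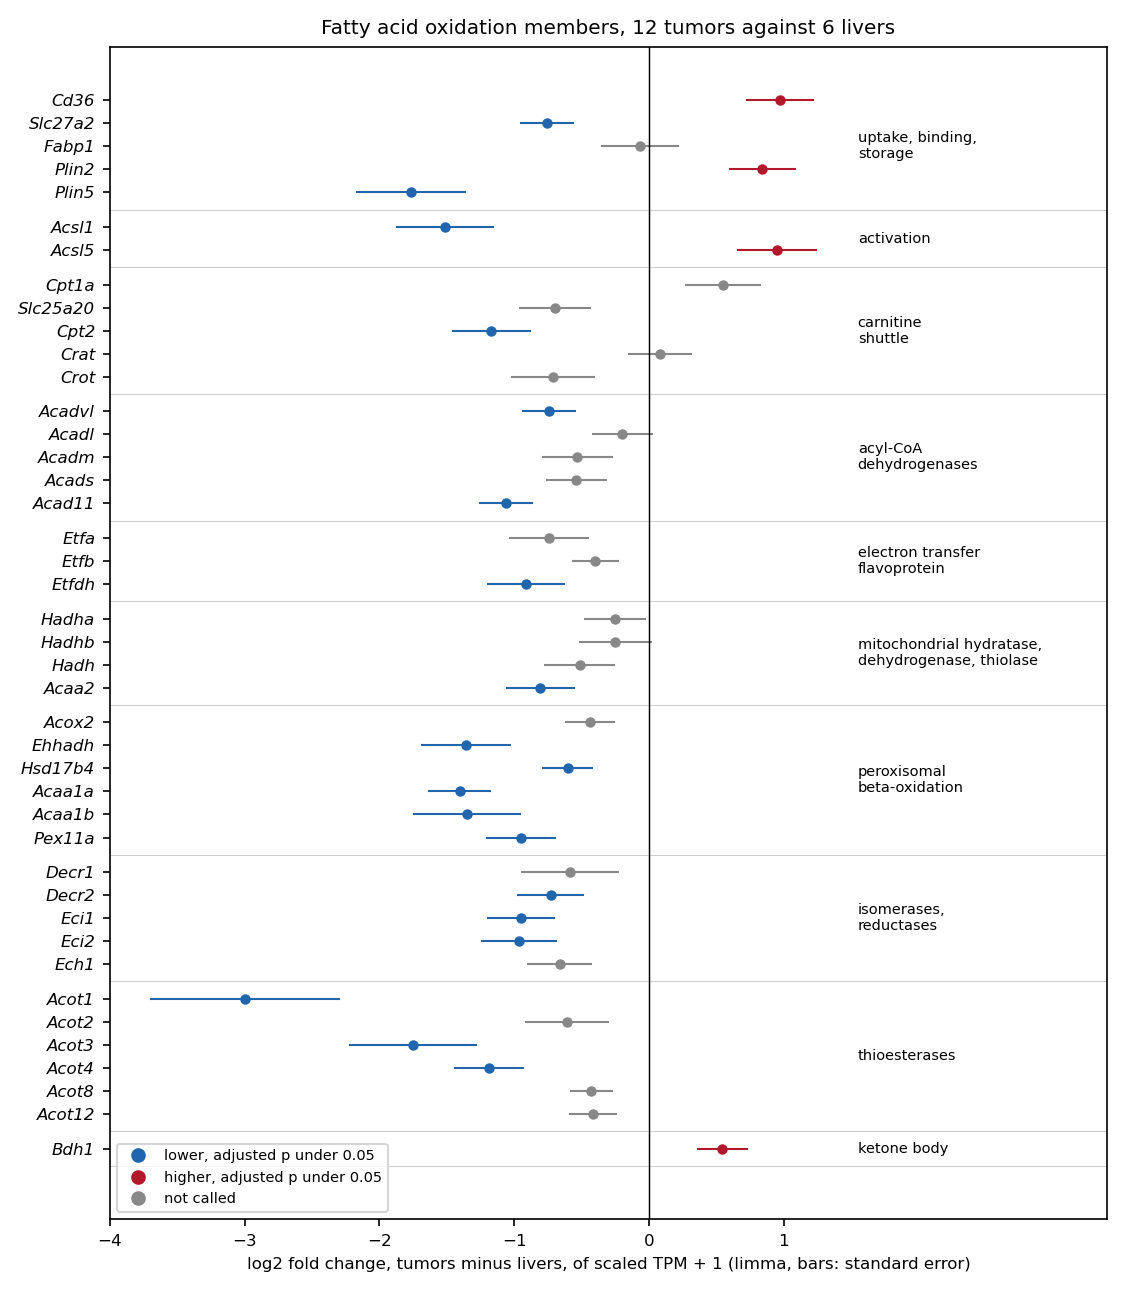
Log2 fold change of each of the 42 members, 12 tumors minus 6 livers, on log2 of scaled TPM + 1, with the standard error of the limma fit as bars and the members in blocks by role. Points run from -2.996 for Acot1 to 0.97 for Cd36, with 19 members lower, 4 higher and 19 not called, and Fabp1 and Crat lie near 0 and change sign under some scalings.

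The split between the directions depended on how samples were scaled. Scaled so that hepatocyte markers were equal, 30 members were lower and 1 was higher. Of all 11844 genes tested in that setting, 2835 were lower (23.9%) and 714 higher. The median log2 fold change was -1.02 for the members and -0.35 for all genes. With no scaling, 8 members were lower and 0 higher. Of all 13309 genes tested in that setting, 671 were lower (5.04%) and 670 higher. The medians were -0.84 for the members and -0.18 for all genes. All 19 lower members kept a negative and all 4 higher members a positive fold change in both settings.

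Uptake, binding and storage moved in both directions. Cd36, a fatty acid translocase of the plasma membrane, ranged from 7.56 to 15.4 scaled TPM in livers (median 12.0) and from 11.5 to 43.5 in tumors (median 21.3). It was above the highest liver in 9 of 12 tumors, and its log2 fold change was 0.97 (SE 0.25, limma adjusted p = 0.00884). Plin2, the lipid droplet coat protein of hepatocytes, was between 121 and 167 in livers (median 129) and between 103 and 418 in tumors (median 264), again with 9 tumors above every liver. Its log2 fold change was 0.84 (SE 0.25, limma adjusted p = 0.0216). Plin5, which ties lipid droplets to mitochondria, went the other way. Livers held 10.3 to 101 scaled TPM (median 73.1) and tumors 9.11 to 49.2 (median 12.1), a log2 fold change of -1.77 (SE 0.41, limma adjusted p = 0.00432). Liver 1 was as low as most tumors, and 11 tumors lay below the 41.1 of the next lowest liver other than liver 1. Slc27a2, an acyl-CoA synthetase and transporter of very long chains, fell by 0.75 on the log2 scale, from a median of 499 to 266. Fabp1, the fatty acid binding protein of the liver, had the highest level of all members, with medians of 1111 in livers and 804 in tumors. Its log2 fold change of -0.07 (SE 0.29, limma adjusted p = 0.905) was within the spread, since livers alone ran from 245 to 1473. Cd36, Plin2 and the other members that rose were named after their values were seen.

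The promoter of Fabp1 is shown because it held the motif that PPAR alpha and its partner bind, a direct repeat of AGGNCA with 1 base between the copies, and no other member's window did. Windows of 300 bases, from 250 before to 50 after the gene's start, were taken from RefSeq (GRCm38.p6), and 38 of the 42 members had one. The repeat was searched on both strands. It was found in 0.451% of the 27025 genes with a window and in 1 of the 38 members. Here it begins 67 bases before the start of Fabp1 and reads on the opposite strand, with the repeat in capitals. The window is chr6:71199629-71199928, plus strand.
Fabp1: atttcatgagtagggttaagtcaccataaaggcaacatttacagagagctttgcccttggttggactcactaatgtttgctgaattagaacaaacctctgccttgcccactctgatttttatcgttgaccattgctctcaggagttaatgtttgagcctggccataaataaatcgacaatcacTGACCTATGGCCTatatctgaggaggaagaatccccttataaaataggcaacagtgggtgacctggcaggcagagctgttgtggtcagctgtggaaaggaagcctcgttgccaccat
A missing match says only that these letters are not in this window.

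Both acyl-CoA synthetases of the list passed the test, in opposite directions. Acsl1, the main long-chain synthetase of liver and fat, was 84.9 to 395 scaled TPM in livers (median 281) and 36.0 to 234 in tumors (median 78.7). The log2 fold change was -1.51 (SE 0.36, limma adjusted p = 0.00537), and 8 tumors lay below liver 1, the lowest liver. Acsl5, another long-chain synthetase, was 98.5 to 385 in livers (median 211) and 196 to 622 in tumors (median 404), a log2 fold change of 0.95 (SE 0.30, limma adjusted p = 0.0279). Liver 1 was the highest liver for Acsl5 and the lowest for Acsl1. The summed level of the pair overlapped between groups, at 427 to 541 in livers and 252 to 673 in tumors.

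In the carnitine shuttle Cpt2 was lower in tumors and the other 4 members did not pass the test. Cpt2, which remakes acyl-CoA inside the mitochondrion, was 34.4 to 66.3 in livers (median 60.2) and 5.14 to 41.1 in tumors (median 27.1), which gave a log2 fold change of -1.17 (SE 0.29, limma adjusted p = 0.00734). The lowest liver was again liver 1, the lowest tumor was tumor 2, and 10 tumors lay below every liver. Cpt1a, the outer membrane enzyme that sets the rate of entry, had a positive value, with medians of 55.4 in livers and 75.1 in tumors. Its log2 fold change was 0.55 (SE 0.28, limma adjusted p = 0.188), and 0.27 without liver 1. Slc25a20, the carrier between both enzymes, and Crot, which serves medium chains from peroxisomes, were at -0.70 and -0.71 on the log2 scale (limma adjusted p = 0.0779 and 0.121). Crat, which acts on acetyl-CoA, was at 0.08 and changed sign without liver 1.

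All 5 acyl-CoA dehydrogenases, of the enzyme family that opens each turn of the mitochondrial cycle, had lower means in tumors, and Acad11 and Acadvl passed the test. Acad11 was 54.9 to 114 in livers (median 94.2) and 20.6 to 64.2 in tumors (median 41.7). Its log2 fold change was -1.06 (SE 0.20, limma adjusted p = 0.000806), with 10 tumors below the lowest liver. Acadvl, for very long chains, fell by 0.74, from a median of 118 to 82.8, and every tumor was below every liver but liver 1. Acadl, Acadm and Acads, for long, medium and short chains, were at -0.20, -0.53 and -0.54 on the same scale (limma adjusted p = 0.611, 0.174 and 0.109). Electrons leave these enzymes through the electron transfer flavoprotein. Of its subunits, Etfb had medians of 256 in livers and 184 in tumors (log2 fold change -0.40, SE 0.17, limma adjusted p = 0.120), and Etfa was at -0.74 (limma adjusted p = 0.0889). The level of Etfb is uncertain, since 62.0% of the runs of 31 bases in its GENCODE vM21 transcripts are also in those of Gm45233. The shares were 10.9 to 12.1% for Acadm, Etfa and Eci2. Etfdh, the oxidoreductase that passes the electrons to the respiratory chain, fell by 0.91 (limma adjusted p = 0.0314), although tumor 4 held the highest value of all samples, 98.3.

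Of the 4 members that carry out the later steps of the mitochondrial cycle, Acaa2 passed the test. Acaa2, its thiolase, fell from a median of 367 to 210, with a log2 fold change of -0.80 (SE 0.26, limma adjusted p = 0.0304). Hadha and Hadhb, the subunits of the trifunctional protein, had the same log2 fold change of -0.25 (SE 0.23 and 0.27, limma adjusted p = 0.509 and 0.590). Medians were 167 and 146 for Hadha and 51.1 and 46.3 for Hadhb, livers first, and both groups overlapped widely. Without tumor 2 the values were -0.14 and -0.07, and without liver 1 they were -0.40 and -0.31. Of the runs of 31 bases of Hadhb in the GENCODE vM21 transcripts, 62.1% are also in other genes, mostly Gm13910, so its level is uncertain. Hadh, for medium and short chains, was at -0.51 (limma adjusted p = 0.190). Hadha and Hadhb are transcribed away from each other on chromosome 5, from starts 273 bases apart at 30154980 and 30155253, so that their windows share 228 bases. That shared stretch is in capitals in the window of Hadhb, chr5:30155003-30155302, plus strand (RefSeq, GRCm38.p6).
Hadhb: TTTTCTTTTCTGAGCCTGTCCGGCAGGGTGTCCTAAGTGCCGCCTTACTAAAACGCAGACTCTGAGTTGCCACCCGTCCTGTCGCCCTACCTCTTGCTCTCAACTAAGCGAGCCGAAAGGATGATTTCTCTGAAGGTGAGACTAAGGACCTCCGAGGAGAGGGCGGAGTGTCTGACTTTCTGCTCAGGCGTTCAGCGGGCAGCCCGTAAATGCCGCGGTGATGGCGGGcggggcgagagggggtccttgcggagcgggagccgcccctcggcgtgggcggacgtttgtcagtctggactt

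Of the 6 peroxisomal members, 5 fell. Their summed level was 380 to 1214 scaled TPM in livers (median 963) and 269 to 640 in tumors (median 371), and 7 tumors lay below liver 1, the lowest liver. Acaa1a, a peroxisomal thiolase, was the only member in which every tumor was below every liver, a pattern found in 0.982% of all genes tested. It was 60.5 to 128 in livers (median 68.2) and 17.4 to 52.2 in tumors (median 30.3), and its log2 fold change was -1.41 (SE 0.23, limma adjusted p = 0.000207). Acaa1b, its neighbour and close copy, was 65.9 to 746 in livers (median 556) and 88.9 to 268 in tumors (median 170), and its log2 fold change was -1.35 (SE 0.40, limma adjusted p = 0.0208). Liver 1 was the single sample below every tumor for Acaa1b, and the next lowest liver was at 471. Ehhadh, the bifunctional enzyme of the classical peroxisomal route, was 53.5 to 96.4 in livers (median 81.5) and 10.3 to 81.3 in tumors (median 32.0), a log2 fold change of -1.36 (SE 0.33, limma adjusted p = 0.00631). In 11 tumors it was below the lowest liver, and tumor 4 was the exception. Pex11a, which promotes the division of peroxisomes, and Hsd17b4, the bifunctional enzyme for branched chains and bile acid precursors, fell by 0.95 and 0.60 (limma adjusted p = 0.0138 and 0.0300). Acox2, the oxidase for bile acid precursors, had medians of 89.2 and 65.3, and its log2 fold change of -0.44 did not pass the test (limma adjusted p = 0.105).

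The windows of both thiolase genes are shown because the genes moved in the same direction and their transcripts are alike. Of all runs of 31 bases in the GENCODE vM21 transcripts, 35.3% of those of Acaa1a are also in Acaa1b and 45.7% of those of Acaa1b in Acaa1a, so the split between the copies by the authors' quantification is uncertain. Acaa1a lies at chr9:119341028-119350296 and Acaa1b at chr9:119148043-119157093. The windows share no run longer than 8 bases, given in capitals, which holds a CCAAT box on the other strand. That run occurs, on either strand, in the windows of 4.40% of all genes. The window of Acaa1a, set around a start at 119341294 inside the bounds of the gene, is chr9:119341044-119341343 on the plus strand and that of Acaa1b is chr9:119157044-119157343 on the minus strand (RefSeq, GRCm38.p6).
Acaa1a: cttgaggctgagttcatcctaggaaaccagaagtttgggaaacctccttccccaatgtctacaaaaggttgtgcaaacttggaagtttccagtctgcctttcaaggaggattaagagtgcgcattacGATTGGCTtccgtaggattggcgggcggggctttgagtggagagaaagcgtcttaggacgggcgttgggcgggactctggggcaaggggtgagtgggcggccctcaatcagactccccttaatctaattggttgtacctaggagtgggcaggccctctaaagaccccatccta
Acaa1b: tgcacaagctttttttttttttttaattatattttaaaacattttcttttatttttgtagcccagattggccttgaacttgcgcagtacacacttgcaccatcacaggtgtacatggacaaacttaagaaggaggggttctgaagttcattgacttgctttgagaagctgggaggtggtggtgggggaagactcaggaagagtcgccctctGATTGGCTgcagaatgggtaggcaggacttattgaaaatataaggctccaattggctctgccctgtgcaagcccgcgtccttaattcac

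**Figure D2:**
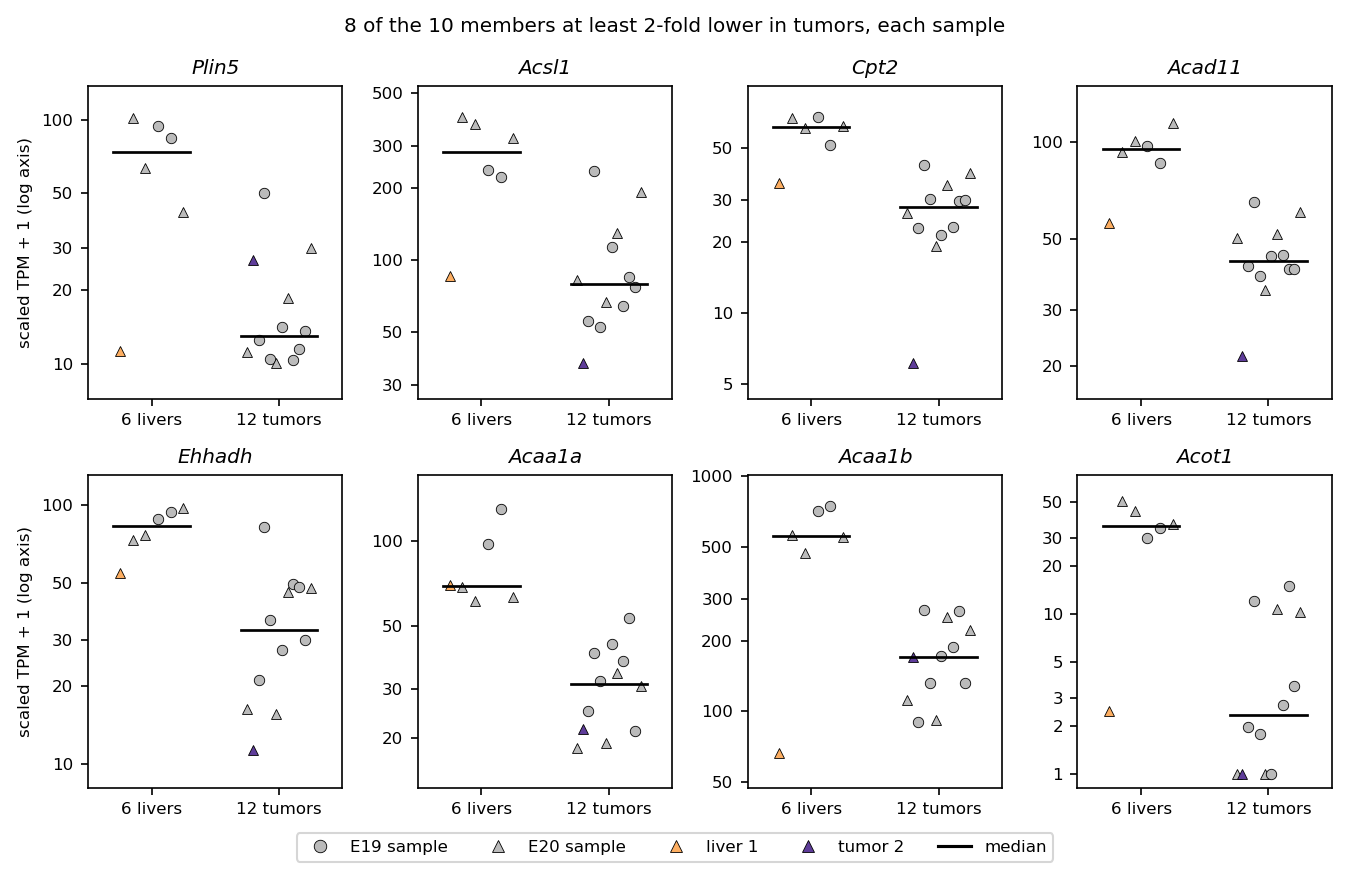
Scaled TPM + 1 in each of 6 livers and 12 tumors (log axis) for 8 of the 10 members that were at least 2-fold lower, with circles for E19 samples, triangles for E20 samples, a bar at each median and liver 1 and tumor 2 in color. For Acaa1a every tumor lies below every liver, while liver 1 lies within or below the range of the tumors for the other genes shown.

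Isomerases and reductases, which prepare unsaturated chains for the cycle, were all lower on average. Eci2, Eci1 and Decr2 passed the test and fell by 0.96, 0.95 and 0.73 on the log2 scale (limma adjusted p = 0.0182, 0.0113 and 0.0431). Ech1, the member of this role with the highest level, had medians of 135 in livers and 74.7 in tumors and a log2 fold change of -0.66 (SE 0.24, limma adjusted p = 0.0612). Decr1 was at -0.58 (limma adjusted p = 0.289).

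The lowest log2 fold change of the 42 members, that of Acot1, was among the thioesterases, which split acyl-CoA back to free fatty acid and CoA. Acot1, the cytosolic enzyme, was 1.46 to 49.7 scaled TPM in livers (median 34.5) and 0 to 13.9 in tumors (median 1.33). It was listed at 0 in 4 tumors, and its log2 fold change was -2.996 (SE 0.70, limma adjusted p = 0.00465). Tumors 10, 4, 8 and 12 held 9.3 to 13.9, the other 8 tumors at most 2.5, and liver 1, at 1.5, was within the latter range. Acot4, a peroxisomal thioesterase, was 10.04 to 17.002 in livers (median 13.4) and 1.82 to 11.3 in tumors (median 5.12), a log2 fold change of -1.19 (SE 0.26, limma adjusted p = 0.00256). Acot3, also peroxisomal, was 1.004 to 10.4 in livers (median 5.19) and was listed at 0 in 8 tumors, and its log2 fold change was -1.75 (SE 0.47, limma adjusted p = 0.0119). Liver 1 was not low for Acot3 and Acot4, where it held 9.5 and 15.4. Acot2, the mitochondrial copy, Acot8 and Acot12 had log2 fold changes of -0.61, -0.43 and -0.42, which did not pass the test (limma adjusted p = 0.192, 0.0656 and 0.111). Acot2, Acot1, Acot4 and Acot3 lie in a row on chromosome 12, between 83987861 and 84060400. Of the runs of 31 bases of Acot1, 28.9% are also in Acot2, and 37.3% of those of Acot2 and 23.1% of those of Acot3 are in some other gene, so reads of these genes could be split between the copies by the quantification.

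Bdh1, which turns acetoacetate into beta-hydroxybutyrate, was the single ketone body gene of the list. It was 63.8 to 106 in livers (median 83.9) and 77.1 to 197 in tumors (median 119), above the highest liver in 9 tumors. The log2 fold change was 0.54 (SE 0.19, limma adjusted p = 0.0477), and the call was lost in 25 of 35 alternative settings. In the fit of all samples, none of the 8 genes of the ketone body list was lower and 2 were higher, both of them monocarboxylate transporters. The list's median log2 fold change was -0.31, and 5 of the 8 were negative. Its summed level was 557 to 1238 scaled TPM in livers (median 1144) and 380 to 1470 in tumors (median 677). Slc16a1 rose by 1.06 and Slc16a6 by 1.62 on the log2 scale (limma adjusted p = 0.000219 and 0.000652), and Bdh2 had the lowest value, -0.95 (limma adjusted p = 0.171).

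**Figure D3:**
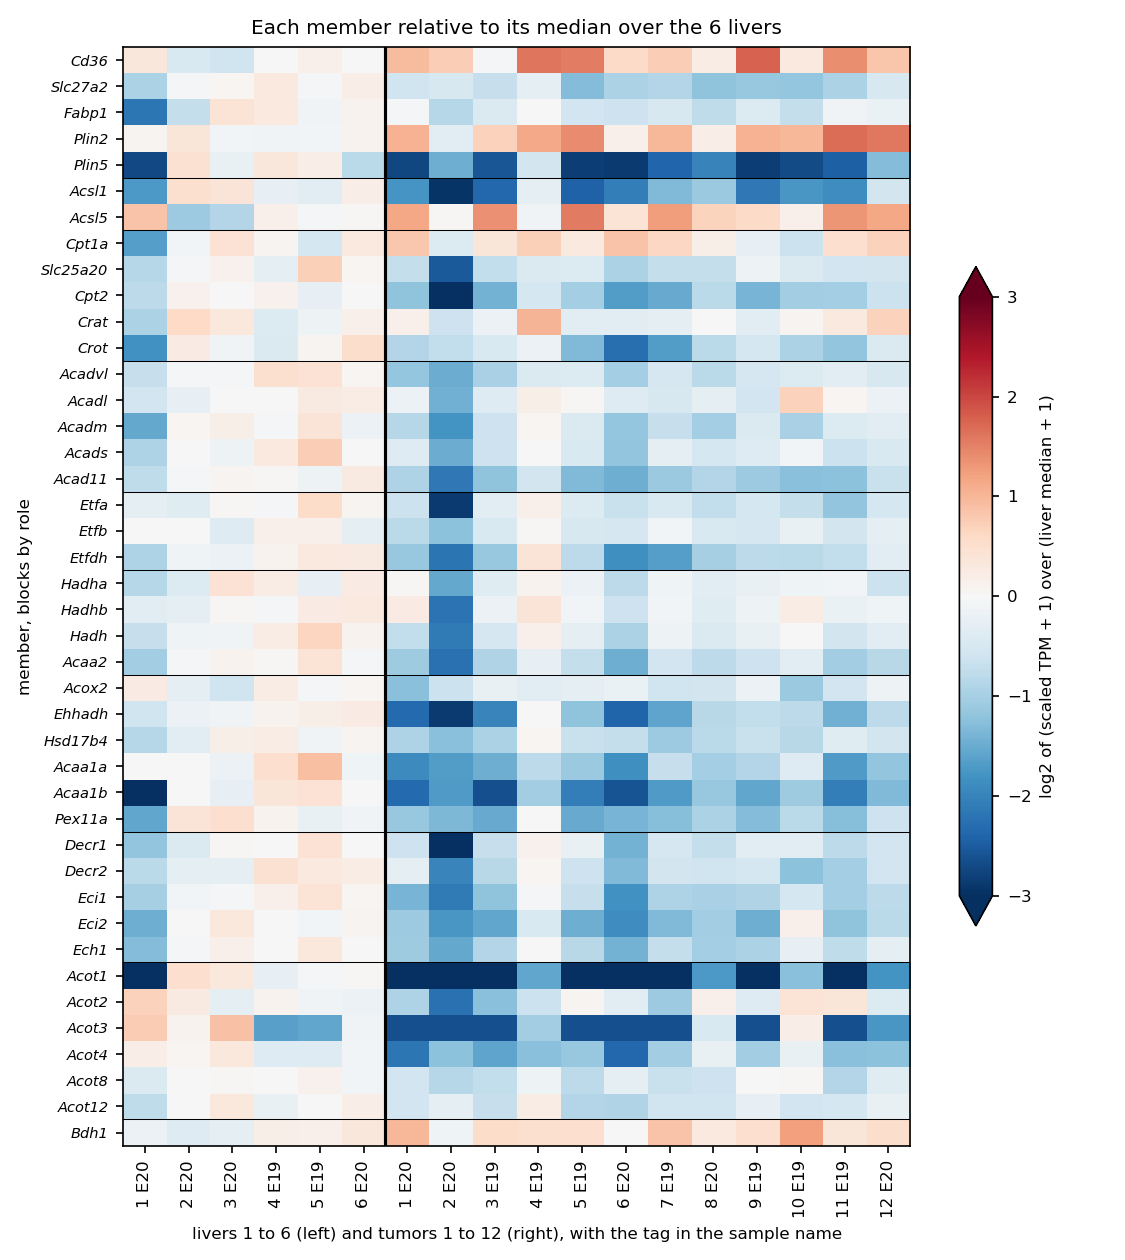
Log2 ratio of each member's scaled TPM + 1 to its median over the 6 livers, for livers 1 to 6 and tumors 1 to 12 with the tag of each sample, members in blocks by role and colors limited to -3 and 3. Liver 1 resembles the tumors over many members, with a median ratio of -0.82, tumor 4 is closest to the livers, with -0.02, and tumor 2 is lowest, with -1.54.

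Samples differed from each other within both groups. Liver 1 was the lowest liver for 31 of the 42 members and for 16 of the 19 that were lower in tumors. Over the members, the median log2 ratio to the liver median was -0.82 in liver 1 and between -0.05 and 0.14 in the other 5 livers. Tumors ran from -1.54 in tumor 2 to -0.02 in tumor 4, so liver 1 fell among the tumors. The members' summed level was 2942 scaled TPM in liver 1, 5189 to 6492 in the other livers and 2493 to 5388 in tumors. Hepatocyte markers summed to 42908 in liver 1, within the range of the other livers, and endothelial markers to 22.0, the lowest liver. Their part in the values of liver 1 was not tested. Tumor 2 was the lowest tumor for 26 members. Tumor 4 was among the 4 highest tumors for 18 of the 19 lower members, tumor 12 for 14 and tumor 10 for 11. Without liver 1, 26 members were lower, with all 19 among them, against 10.8% of all genes. The 7 added were Slc25a20, Crot, Acadm, Acads, Ech1, Acot8 and Acot12. With liver 1 and tumor 2 both left out, a choice made after seeing the data, 29 were lower, again with all 19, against 14.8% of all genes.

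The tags split both groups, and the difference was computed within each. E19 samples alone, 2 livers and 7 tumors, had 11 members lower against 6.29% of all genes and a median log2 fold change of -0.71. E20 samples alone, 4 livers and 5 tumors, had 3 lower against 1.13% of all genes, with a median of -0.75. All 19 lower members had negative values within each tag. Plin5 was at -2.60 in E19 and -1.25 in E20, Acsl1 at -1.44 and -1.54, Ehhadh at -1.25 and -1.69, Acaa1a at -1.70 and -1.45, and Acot1 at -3.22 and -3.05. A test of the difference itself, the interaction of tag and group in limma, passed for 0 members at an adjusted p under 0.05, and for 0% of all genes. At an unadjusted p under 0.05 it passed for 1 member, Acot3, and for 2.97% of all genes (348 genes). Acot3 was at -0.41 in E19 and -2.43 in E20. Livers 4 and 5, the only E19 livers, were each listed at 1 for Acot3, so a fall in E19 could hardly be seen.

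Genes of the same or neighbouring pathways were taken from 8 lists, which held 129 tested genes that are no members. Of these, 46 were lower (35.7%) and 16 higher (12.4%) in tumors, against 9.28% and 9.77% of all genes tested. The lists were chosen with earlier results of these data known, so the shares are a description only. The list of other genes of mitochondrial beta-oxidation and its control was mixed. It also held genes of branched-chain amino acid and propionate breakdown, of which Ivd, Pcca and Mmut were lower. Of the 21 tested genes in the list, 11 were lower and 0 higher, with a median log2 fold change of -0.73. Values ran from Acadsb, for short branched chains, at -1.23 (limma adjusted p = 0.00210) to Acaca, at 0.81 (limma adjusted p = 0.0809). Acaca is a cytosolic enzyme of fatty acid synthesis that makes malonyl-CoA. Acacb, which also makes malonyl-CoA, was at 0.20 (limma adjusted p = 0.798). Liver 1 held 133 scaled TPM of Acaca against at most 34.8 in the other livers, and without it Acaca was at 1.17 and passed the test as higher (limma adjusted p = 0.00186), as it also did without tumor 10. Other peroxisomal genes had 15 of 30 lower and 1 higher (median -0.56). Hacl1, of alpha-oxidation, was lowest, at -1.77 (limma adjusted p = 8.38e-05). Abcd2, a peroxisomal importer of very long chains, was the 1 that rose, by 2.30, with liver 1 at 21.2 and the other livers at most 3.95.

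Genes of fatty acid uptake, activation and storage outside the members also moved in both directions. Of 15 tested genes of uptake and activation, 6 were lower and 4 higher (median log2 fold change -0.48). Acsm5, a medium-chain synthetase of mitochondria, was lowest at -1.60 (limma adjusted p = 0.000386). Fabp5, a fatty acid binding protein best known from skin, was highest at 3.92 (limma adjusted p = 4.21e-06), from 3.75 to 92.3 in livers and 108 to 440 in tumors. Lipid droplet and lipolysis genes had 3 of 15 lower and 5 higher (median -0.37). Cidec, which fuses lipid droplets, rose by 2.84 (limma adjusted p = 4.25e-05) and Fitm1, which helps to form them, fell by 2.29 (limma adjusted p = 0.000701). Adipocyte markers were low. Adipoq, Lep and Plin1 were at 0 in every sample, the list of 6 summed to 1.89 to 3.75 in livers and 5.14 to 60.8 in tumors, and Fabp4, which rose by 2.27, held most of it. Among 5 other thioesterases tested, Acot7 was lower (-0.74, limma adjusted p = 0.00400) and Acot9 higher (1.25, limma adjusted p = 0.00700).

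**Figure D4:**
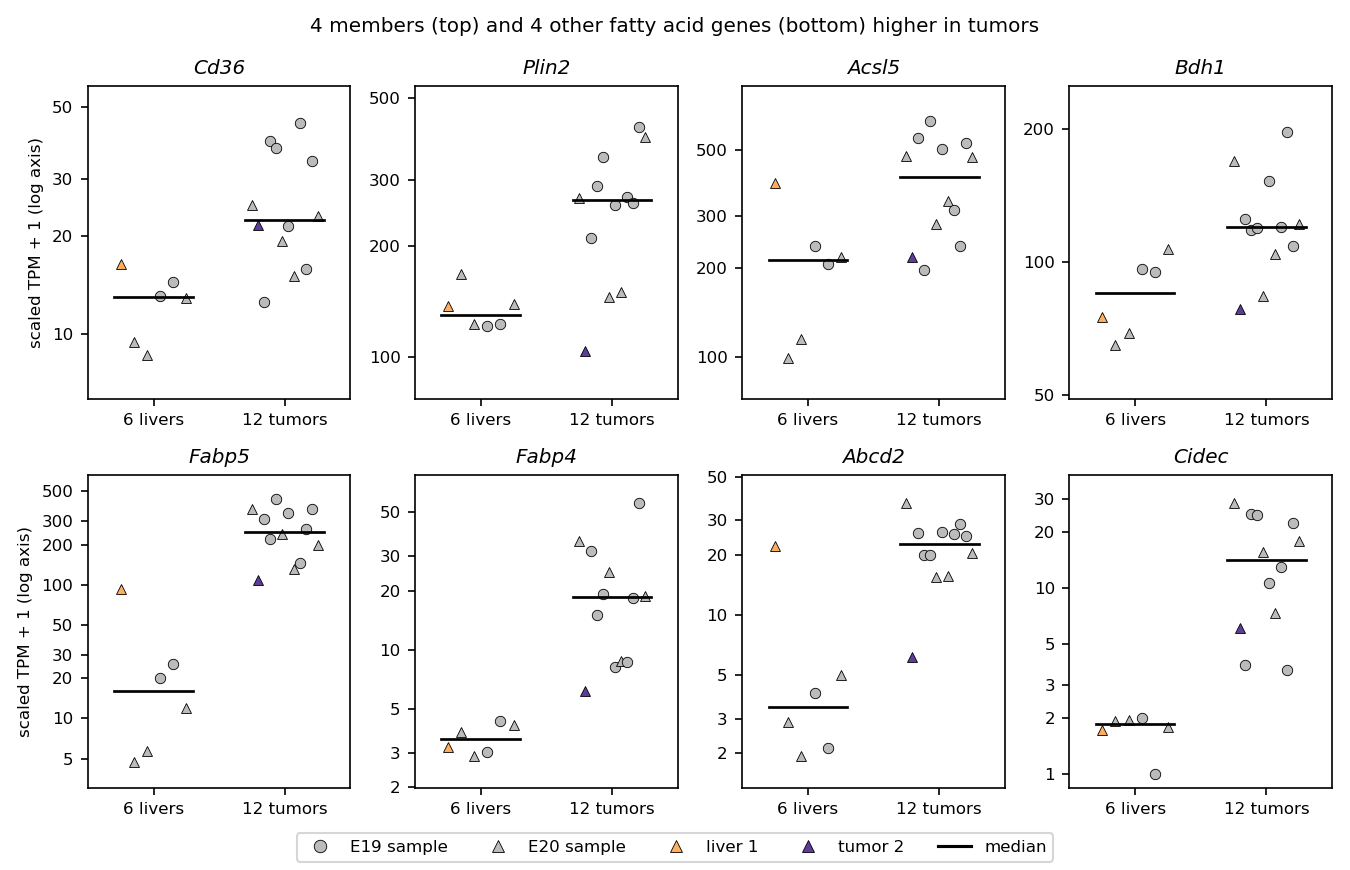
Scaled TPM + 1 in each of 6 livers and 12 tumors (log axis) for the 4 members higher in tumors and for 4 genes of the neighbouring lists, with circles for E19 samples, triangles for E20 samples and a bar at each median. For Fabp5 the 12 tumors lie at 108 or more and the livers at 92.3 or less, and liver 1 is the highest liver for Cd36, Acsl5, Fabp5 and Abcd2.

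PPAR alpha itself, Ppara, did not pass the test, with medians of 134 in livers and 111 in tumors and a log2 fold change of -0.23 (SE 0.24, limma adjusted p = 0.555). Of 20 regulators tested, 5 were lower and 0 higher (median -0.41). Ppargc1a, a coactivator, was at -0.34 (limma adjusted p = 0.437), while Nr1d1, a repressor of the circadian clock, was lowest at -1.33 (limma adjusted p = 0.0224) and Ppard highest at 0.51 (limma adjusted p = 0.268). The call of Nr1d1 was lost without liver 1, its highest liver at 18.3, where it was at -0.98 (limma adjusted p = 0.0673), and also without liver 3. Within the tags Nr1d1 was at -0.20 in E19 and -1.83 in E20. Known targets of PPAR alpha outside the members moved both ways, with 7 of 18 lower and 3 higher (median -0.68). Cyp4a14 and Cyp4a10, a pair of omega-hydroxylases, had the lowest values of that list. Cyp4a14 was 17.9 to 210 in livers (median 82.0) and 0 to 38.2 in tumors (median 2.55), a log2 fold change of -4.16 (SE 0.88, limma adjusted p = 0.00200), and Cyp4a10 was at -3.15 (SE 0.72, limma adjusted p = 0.00387). Other genes of the same enzyme family differed, since Cyp4a12a was at -1.69 and Cyp4a31 at 0.92, neither past the test (limma adjusted p = 0.163 and 0.101). Fgf21, a hormone that the liver secretes in fasting and stress, was 0 to 6.57 in livers and 5.62 to 41.8 in tumors and rose by 2.39 (SE 0.42, limma adjusted p = 0.000369). Pdk4, which spares glucose, and Angptl4, an inhibitor of lipoprotein lipase, were at 0.65 and -0.77 (limma adjusted p = 0.164 and 0.178). Without liver 1, which held 10.3 scaled TPM of Angptl4 against at least 65.9 in the other livers, Angptl4 was at -1.26 and passed the test (limma adjusted p = 0.00213), and Cyp4a12a was at -2.82 and passed too (limma adjusted p = 0.000430).

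**Figure D5:**
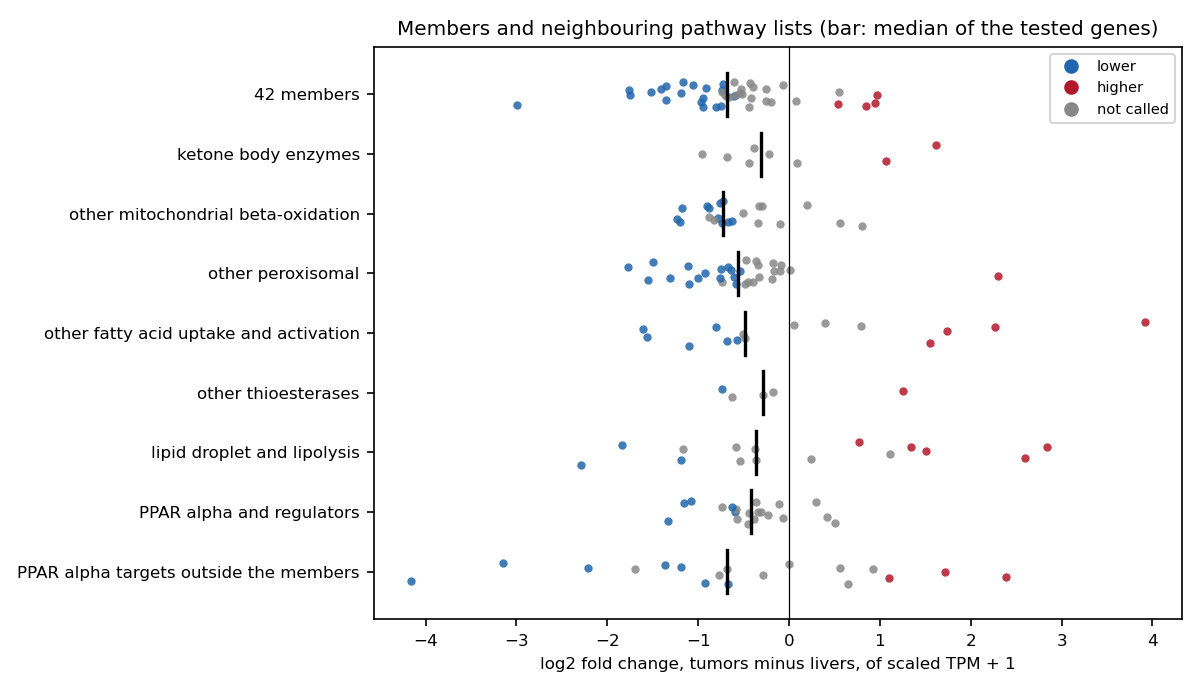
Log2 fold change, tumors minus livers, of the members and of the tested genes of 8 neighbouring lists, some of which share genes, with a bar at each median and colors for genes lower, higher or not called. Medians run from -0.73 for the mixed list headed other mitochondrial beta-oxidation to -0.29 for other thioesterases, and each list spreads over both sides of 0.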

How the data were processed

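Per the labels and the study's methods, the authors purified poly-A RNA from each liver or tumor, sequenced it paired end, and quantified genes with Salmon on GRCm38 (mm10) as TPM. The submitters' processing notes also name edgeR, with no role given. The deposited whole numbers, a score named raw counts in the study's text, were read as rounded TPM, so no count model was used. The table had 8 lines with an extra separator, which were read accordingly. Each sample was divided by a trimmed-mean factor (30% of M and 5% of A values trimmed). Genes at 1 or more in at least 6 samples were fitted on log2 values, with a pseudocount of 1, in limma 3.58.1 (R 4.3.3) with a trend, tumors against livers, Benjamini-Hochberg over all 11708 genes. The fit was tested on simulated data. Named members were, per role, up to 4 with adjusted p under 0.05 and a difference of 1 log2 unit or more, or else the one with the highest mean, and in each list the genes with the lowest and highest log2 fold change, plus 10 chosen genes, of which some are not reported here. Members and lists were chosen with earlier results of these data known. Alternatives covered scaling, pseudocount, filter, tag, age, weights, a replicate block and samples left out. P-values measure the spread between these samples.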

Additional observations from a re-analysis of the deposited data

Results flagged for a closer look

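In the 6 livers, the gap between 1 sample and its nearest neighbour was compared with the group's whole range for each of the 42 members, and passed Dixon's critical value for 6 samples in 2 of them. Chance gives about 1 in 20 groups, or 2.1 of 42. Both cases were liver 1. For Ech1 the ratio was 0.683, at 54.2 scaled TPM in liver 1 and 132 in the next liver. For Eci2 it was 0.654, at 31.5 in liver 1 and 83.8 in the next. The 12 tumors were too many for this comparison.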

How the results depend on the processing

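The members' median log2 fold change stayed between -1.02 and -0.55 in 35 alternatives. The count of lower members, 19, stayed within 1.5 times in 30 of 35. It was 8 with no scaling, 30 with scaling to hepatocyte markers, 11 in E19 samples alone, 3 in E20 samples alone, and 29 with neither liver 1 nor tumor 2. Each tag alone also held fewer samples, and the cause of these changes was not tested. The count of higher members, 4, was 0, 1, 1, 0 and 4 in those settings. Leaving out 1 sample at a time gave 14 to 26 lower, 1 to 4 higher, and 50 to 72 called genes of the pathway lists. Of those lists, 62 genes were called in all samples, 31 with no scaling and 12 in E20 samples alone. No member passed the test of a tag difference in any of 27 alternatives (limma), and averaging tumors 11 and 12 was not run for it, since their tags differ. The replicate block, for livers and tumors 1 to 6, gave 14 lower and 1 higher member, and the same 12 samples without it gave 13 and 1. The share of all genes that were lower also moved between settings, from 1.13% in E20 alone to 23.9% with hepatocyte scaling. These counts alone therefore do not measure how stable the members were. Same-numbered livers and tumors came from different mice, and all such pairs but liver 3 and tumor 3 shared a tag. They correlated at -0.105 to 0.422 in their deviations, with a mean of 0.178 against -0.0355 for other numbers. Of the 6 livers, 3 correlated best with their own number. The part of the tag in this was not tested. None of the 23 called members changed sign. Fabp1 turned to 0.107 in E20 alone and 0.0152 with totals equal without Siglece, and ran from -0.431 to 0.0866 with 1 sample left out. Crat turned to -0.0762 with no scaling, -0.246 with hepatocyte markers, -0.0592 with sample weights, -0.0604 in E20 alone and -0.0331 with neither liver 1 nor tumor 2, and ran from -0.0905 to 0.218 with 1 sample left out. Acaa1a passed in all 35 alternatives. Decr2 lost its call in 17, Etfdh in 12, Hsd17b4 in 10, Acaa2 in 9, Acsl5 in 8 and Plin2 in 7. Equal totals without Siglece and leaving out liver 1 and tumor 2 were chosen after seeing the data. Rounding limits Acot1, Acot2 and Acot3, and all members in tumor 2.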

Other observations

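Tumors 11 and 12 came from 1 mouse and carry different tags, E19 and E20. Their values are given side by side as a description of a single pair, in scaled TPM. Acsl1 was 76.0 in tumor 11 and 191.7 in tumor 12. Plin5 was 12.7 and 28.8, Acot1 was 2.5 and 9.3, and Acaa1b was 131.7 and 221.4. Pex11a was 21.5 and 34.8, and Ehhadh was 29.1 and 46.7. Several members went the other way, among them Hadha, with 158.3 and 106.0, Acsl5, with 526.9 and 472.6, and Cd36, with 32.9 and 22.1. Plin2 was high in both, with 418.0 and 392.0, against at most 167.1 in livers. The median log2 ratio of the 42 members to the liver median was -0.75 in tumor 11 and -0.48 in tumor 12.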
